A study of Mus musculus with 12 samples.

Results

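The step between 8 and 12 h of doxycycline (dox) was examined in mouse embryonic stem (ES) cells that carry a dox-inducible Tcf15-E47 construct. It was taken as the 2 arrays of Tcf15-E47 cells with 12 h of dox against the 2 arrays of the same cells with 8 h of dox, 4 of the 12 arrays of the study. Both groups carry the construct, are of the 129/P2 E14tg2a background, an established ES cell line, and received 1 µg/mL dox. They grew in GMEM medium containing LIF, a cytokine of ES cell self-renewal, and fetal calf serum (FCS). The remaining 8 arrays, 2 a group, held the same line at 0 and 24 h and the parental line at 0 and 8 h. The untreated and parental arrays entered only the estimate of the spread and the choice of detected probes, and the 24 h arrays also gave the next step of the time course. No parental array with 12 h of dox was analysed here, so time in dox and time in culture cannot be told apart from induction of the construct. Whether the line is 1 clone is not given in the sources used here, nor is whether the arrays of a group came from separate cultures, so p-values measure only the spread between these samples, which may be technical.

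Tcf15 belongs to the bHLH (basic helix-loop-helix) class of transcription factors. It pairs with E proteins such as E47, a product of the gene Tcf3, and binds short DNA motifs called E-boxes. Id proteins bind E proteins and keep them off DNA. ES cells in serum and LIF move between a naive state, held by factors such as Nanog, Esrrb and Tfcp2l1, and a state primed for differentiation, in which Otx2 and Pou3f1 are expressed, and FGF signalling through ERK promotes that passage. In mouse ES cells Tcf15 is known as a factor of the primed state, and the step asks which of these genes move once the response to the fusion has begun.

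Between 8 and 12 h of dox Otx2 and Prr19 rose and Nanog fell, and the levels of these 3 genes did not overlap between the groups. The same lack of overlap was found for 27.8% of all genes upward and 25.8% downward. Prr19, whose product takes part in meiotic crossing over in mice, had normalized log2 levels of 8.08 and 8.14 at 12 h, against 7.47 and 7.50 at 8 h. Its change was 0.63 ± 0.0611 (SE; limma, adjusted p = 4.69e-05). Otx2, a homeodomain factor of the primed epiblast, stood at 9.82 and 9.78 at 12 h, against 9.17 and 9.19 at 8 h, a change of 0.62 ± 0.0699 (limma, adjusted p = 0.00013). Nanog, a core factor of the naive state, stood at 9.93 and 10.05 at 12 h, against 10.62 and 10.65 at 8 h, a change of −0.65 ± 0.061 (limma, adjusted p = 4.69e-05). A second, dimmer Nanog probe changed by −0.35, and a second Prr19 probe changed by 0.20, which did not pass (limma, adjusted p = 0.0996 among all kept probes). All values are on the log2 scale without background subtraction, so they understate the change of dim genes.

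RefSeq promoters (build GRCm38.p6, 250 bases before to 50 after the gene's start, on the gene's strand) are shown for these 3 genes and for the genes of the largest rise (Edn2) and the largest named fall (Hspg2), with E-boxes (CANNTG, the same on both strands) in capitals. Where the table held several starts, the one nearest the gene's outermost start was used (Otx2 has 4, Nanog 2).
Prr19, chr7:25301109-25301408, plus strand: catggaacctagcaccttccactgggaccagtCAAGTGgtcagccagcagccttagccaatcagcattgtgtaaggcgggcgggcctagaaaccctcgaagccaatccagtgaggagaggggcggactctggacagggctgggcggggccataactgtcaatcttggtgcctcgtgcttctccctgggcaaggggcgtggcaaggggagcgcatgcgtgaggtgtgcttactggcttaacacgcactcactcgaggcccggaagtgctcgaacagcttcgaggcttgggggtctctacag
Otx2, chr14:48667595-48667894, minus strand: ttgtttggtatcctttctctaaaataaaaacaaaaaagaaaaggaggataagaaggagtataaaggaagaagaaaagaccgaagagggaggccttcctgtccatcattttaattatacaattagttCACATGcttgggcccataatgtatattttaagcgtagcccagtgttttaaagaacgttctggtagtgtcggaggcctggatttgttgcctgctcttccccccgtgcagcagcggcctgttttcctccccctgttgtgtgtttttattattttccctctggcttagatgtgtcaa
Edn2, chr4:120160956-120161255, plus strand: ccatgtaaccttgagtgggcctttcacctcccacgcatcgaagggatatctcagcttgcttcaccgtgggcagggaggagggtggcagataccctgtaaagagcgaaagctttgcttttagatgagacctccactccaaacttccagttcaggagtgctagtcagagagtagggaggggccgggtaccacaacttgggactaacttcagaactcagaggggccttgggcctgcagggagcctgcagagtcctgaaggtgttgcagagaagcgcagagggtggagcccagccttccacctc
Nanog, chr6:122707239-122707538, plus strand: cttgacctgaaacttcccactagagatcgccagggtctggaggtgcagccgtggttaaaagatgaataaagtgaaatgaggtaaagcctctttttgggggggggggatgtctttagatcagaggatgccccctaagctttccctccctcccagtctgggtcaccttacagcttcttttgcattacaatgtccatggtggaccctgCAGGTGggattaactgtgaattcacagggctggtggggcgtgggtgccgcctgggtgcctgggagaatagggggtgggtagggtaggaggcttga
Hspg2, chr4:137468553-137468852, plus strand: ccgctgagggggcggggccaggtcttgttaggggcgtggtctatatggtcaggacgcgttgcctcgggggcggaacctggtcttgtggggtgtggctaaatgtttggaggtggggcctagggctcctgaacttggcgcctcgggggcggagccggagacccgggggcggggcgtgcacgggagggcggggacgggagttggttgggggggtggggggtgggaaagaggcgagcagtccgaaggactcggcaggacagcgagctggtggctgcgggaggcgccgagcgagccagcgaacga

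The Nanog window held 1 E-box, CAGGTG, the Prr19 window 1, CAAGTG, and the Otx2 window 1, CACATG. The windows of Edn2 and Hspg2 held 0 matches to these letters. A promoter in the table was found for 6992 of the tested named genes. CANNTG was present in 67% of 215 promoters of genes that rose, 62.4% of 274 promoters of genes that fell, 61.8% of the promoters of tested genes and 72.1% of all 27025 genes in the table, with 1 promoter used for each gene. CAGGTG or its complement CACCTG, which are among the CANNTG matches, was present in 22.3% of the promoters of genes that rose, 21.9% of those that fell, 17.3% of those tested and 20% of all. CAGCTG, also a form of CANNTG and its own complement, was present in 15.3%, 16.1%, 14% and 16.1% of the same 4 sets. These shares are descriptions of letters in a window and were not tested.

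Over all genes, 281 of 10093 were higher at 12 h (2.78%) and 404 were lower (4%), 6.79% in all, by limma at an adjusted p under 0.05. Of these calls, 256 higher and 337 lower were named genes. The changes were modest: the median size of a called change was 0.32, 9 genes rose and 63 fell by more than 0.5, and 0 changed by more than 1. The pairs of arrays of every called gene did not overlap, but this was also so for 27.8% of all genes in the upward and 25.8% in the downward direction. The median change of all genes tested was 0.003, and 48.7% had a negative change. The plot of change against level shows the calls spread over the whole range of levels, with the larger changes on the negative side.

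**Figure D1:**
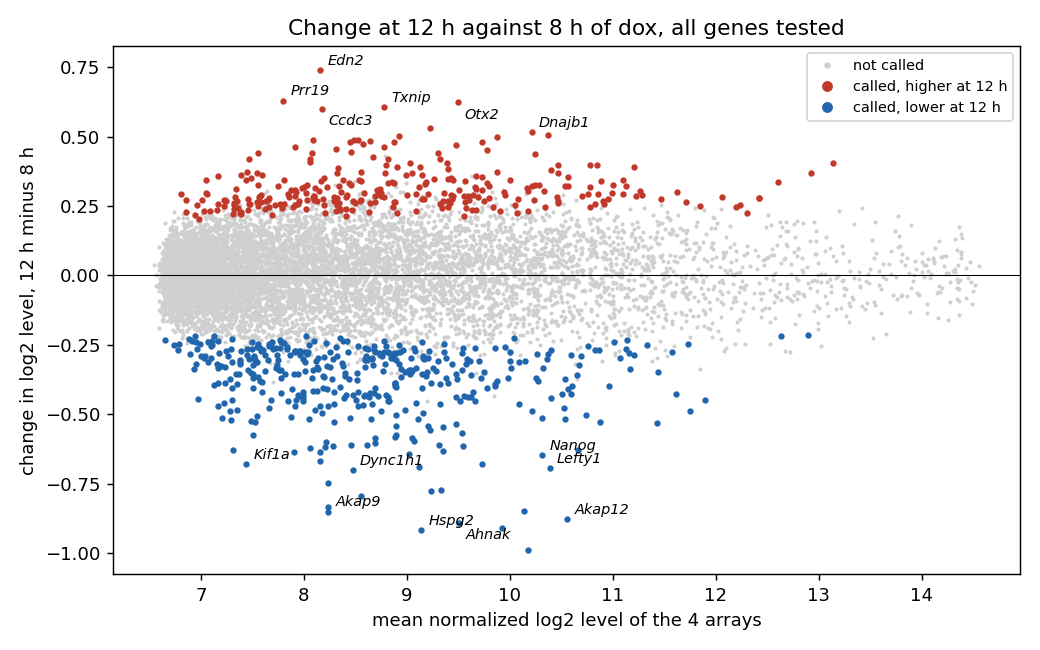
Change in normalized log2 level at 12 h minus 8 h of dox (vertical axis) against the mean level of the 4 arrays (horizontal axis) for 10093 genes tested. Red points are the 281 genes called higher and blue points the 404 called lower by limma; the largest fall, −0.99, is a probe without a gene name, and the largest rise, 0.74, is Edn2.

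These counts rest on all 4 arrays. Without replicate 1 of the 12 h group 48 were higher and 120 lower, and without its replicate 2 these counts were 79 and 170. Without replicate 1 of the 8 h group they were 86 and 156, and without its replicate 2 they were 94 and 190. Scaling each array to its median in place of the deposited normalization left 5 higher and 5 lower. Among them were Edn2, Txnip, Prr19, Ccdc3, Dnajb1, Dync1h1 and Kif1a, and all 10 were also called here. The call of every other gene named in the text was lost under that scaling, with its direction kept. Replicates of a group correlated at r = 0.998 across genes, which are not independent, in both groups. Of all probes, 30.7% and 33.0% were detected at 12 h, against 33.5% and 34.3% at 8 h. Of the ES cell identity markers with a probe, 7 of 7 were detected on all 4 arrays. Of 11 fibroblast markers with a probe, 8 were detected on none of the 4, including the collagens Col1a1, Col1a2 and Col3a1, while Dcn and Thy1 were detected on all 4 and Acta2 on 1 array of each group. The mean level of the list was 6.65 and 6.68 at 12 h, against 6.67 and 6.67 at 8 h. In bulk RNA, fewer cells of a type and less RNA per cell cannot be told apart.

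The largest rise was that of Edn2, which encodes the vasoactive peptide endothelin-2. Its levels were 8.62 and 8.43 at 12 h, against 7.82 and 7.75 at 8 h, a change of 0.74 ± 0.0822, or 1.67-fold (limma, adjusted p = 0.00013). With background-corrected values the same change was 1.01. Txnip, which binds thioredoxin and restrains glucose uptake, had levels of 9.18 and 8.98 at 12 h, against 8.52 and 8.43 at 8 h, a change of 0.61 ± 0.0836. Its relative in the arrestin family, Arrdc4, changed by 0.50 ± 0.0807. Ccdc3, a secreted protein, changed by 0.60 ± 0.062, and the other Txnip probe by 0.45. Both 12 h arrays lay above both 8 h arrays for each of these genes, and replicate 1 was the higher 12 h array for Edn2, Txnip, Arrdc4 and Ccdc3.

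Next in size were the co-chaperone Dnajb1 (0.52), the histone gene H2ac21 (0.51), the ERK phosphatase Dusp4 (0.50), Pes1 of ribosome assembly (0.49), the nuclear protein gene Csrnp1 (0.49) and the pyridoxal phosphatase Pdxp (0.49). Kndc1, a Ras exchange factor of neurons, Fam91a1, which acts in Golgi transport, and Dpp4, a cell-surface peptidase, each changed by 0.48. Ccno, a cyclin needed in mice for multiciliated cells, also rose. It stood at 9.63 and 9.55 at 12 h, against 9.18 and 9.19 at 8 h, a change of 0.41 ± 0.0615 (limma, adjusted p = 0.00142). The call of H2ac21 was lost without either 12 h array or replicate 2 of the 8 h group and with background correction. That of Pes1 was lost without replicate 1 at 12 h or replicate 2 at 8 h, and that of Fam91a1 without replicate 2 at 12 h.

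**Figure D2:**
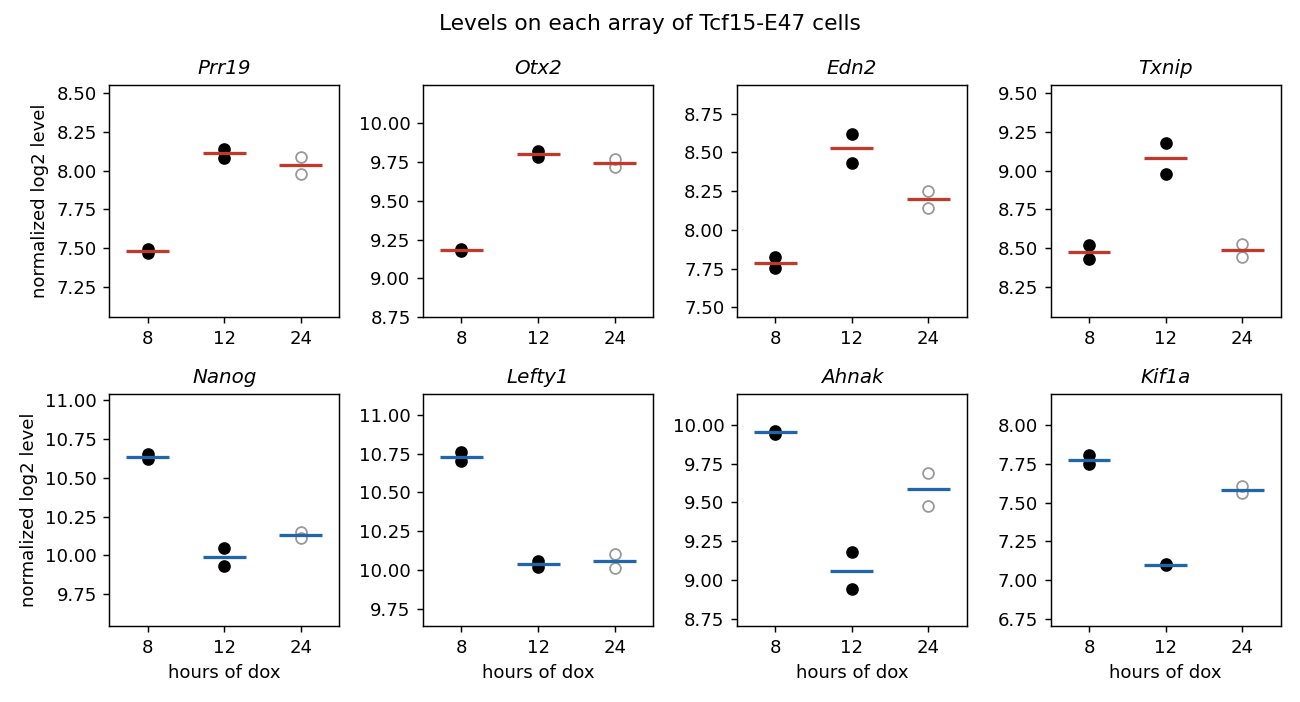
Normalized log2 level (vertical axis, 1.5 units high in every panel) on each array of Tcf15-E47 cells at 8, 12 and 24 h of dox for 8 genes; filled points are the arrays compared, open points the 24 h arrays, and lines group means. The upper genes, Prr19, Otx2, Edn2 and Txnip, lie higher at 12 h than at 8 h, and the lower genes, Nanog, Lefty1, Ahnak and Kif1a, lie lower.

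The largest named fall was that of Hspg2, which encodes perlecan, a proteoglycan of basement membranes. Its levels were 8.62 and 8.74 at 12 h, against 9.68 and 9.52 at 8 h, a change of −0.92 ± 0.0875 (limma, adjusted p = 4.69e-05), and its other probe changed by −0.79. Ahnak, a very large scaffold protein at the plasma membrane, had levels of 8.94 and 9.18 at 12 h, against 9.96 and 9.94 at 8 h, a change of −0.89 ± 0.0863. Both 12 h arrays of these genes lay well below both 8 h arrays. Anchoring proteins of protein kinase A fell too: Akap12 by 0.88 and Akap9, at the centrosome and Golgi, by 0.85. A second Akap9 probe also changed by −0.85, while a second, dim Akap12 probe changed by −0.03 (limma, adjusted p = 0.904 among all kept probes).

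Among the remaining largest falls, Snhg16, a host transcript of small nucleolar RNAs, changed by −0.75, with levels of 8.06 and 7.67 at 12 h, against 8.61 and 8.62 at 8 h. Lefty1, an inhibitor of NODAL signalling, changed by −0.69 ± 0.071. It stood at 10.06 and 10.02 at 12 h, against 10.76 and 10.70 at 8 h. Uaca (−0.69), the histone acetyltransferase gene Kat6b (−0.68), Prrc2b (−0.64), 2410006H16Rik (−0.64), the RAS family gene Mras (−0.64) and Ppp1r1a, an inhibitor of protein phosphatase 1 (−0.63), completed the 15 with Nanog and the motor genes Dync1h1 and Kif1a, described elsewhere. The calls of all 15 held with any 1 of the 4 arrays left out. For Ahnak, Kif1a, Kat6b and Mras a dimmer probe changed by less, from −0.16 for Kat6b to −0.28 for Mras, while a further Ahnak probe changed by −0.62.

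The genes of the fusion's own 2 components showed no called change. The Tcf15 probe averaged 10.02 at 12 h, against 10.09 at 8 h, with overlapping arrays, a change of −0.07 ± 0.0681 (limma, adjusted p = 0.634). The Tcf3 probe stood at 7.37 and 7.41 at 12 h, against 7.19 and 7.39 at 8 h, a change of 0.10 ± 0.0871 (limma, adjusted p = 0.552), and its other probe changed by −0.15. The sources used here do not say whether these probes lie within the construct, so they check its induction only in part. Of 14 tested genes of bHLH factors, partners and Id inhibitors, 1 rose and 0 fell, against 2.78% and 4% of all genes. Their median change was 0.000. This list and all lists below were chosen with earlier results of these data known, and their shares were not tested. The riser was Id3, at 8.20 and 8.27 at 12 h, against 7.98 and 7.96 at 8 h (0.27 ± 0.0613; limma, adjusted p = 0.0169). Its call was lost when any 1 of the 4 arrays was left out and with background correction. Id1 changed by 0.28 (limma, adjusted p = 0.0806; it passed when only the 4 arrays compared or only the 6 dox-treated Tcf15-E47 arrays were fitted) and Id2 by −0.04.

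In the naive pluripotency list, 4 of 20 tested genes fell and 2 rose, against 4% and 2.78% of all genes. A negative change was measured for 15, against 48.7% of all genes, and for 11 with median scaling. The median of the list was −0.07. With median scaling it was −0.01, and that of all genes was 0.06. Beside Nanog, the falls were those of the orphan nuclear receptor gene Esrrb (−0.45), Tfcp2l1 (−0.43) and Tbx3 (−0.34). Esrrb stood at 11.62 and 11.73 at 12 h, against 12.15 and 12.09 at 8 h, and both Tbx3 probes changed alike (−0.34 and −0.35). The risers were the lysosomal mannosidase gene Manba (0.37) and the homeobox gene Gbx2 (0.29). Klf4 changed by −0.14, Klf2 by −0.22, Zfp42 by −0.05 and Klf5 by 0.00, none of which passed. The calls of Nanog and Esrrb held with any 1 array left out. Those of Tfcp2l1, Manba, Gbx2 and Tbx3 did not, and the first 3 of these also failed with background correction.

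Of 12 tested general pluripotency genes, 1 rose and 0 fell, against 2.78% and 4% of all genes. Pou5f1, which encodes Oct4, changed by −0.17 ± 0.0737 (limma, adjusted p = 0.19), with levels of 11.88 and 11.88 at 12 h, against 11.99 and 12.12 at 8 h. Sox2 changed by −0.09 (limma, adjusted p = 0.537). Utf1, a chromatin protein of pluripotent cells, rose by 0.33 (limma, adjusted p = 0.0345), a call that was lost with any 1 array left out.

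Of 13 tested epiblast priming genes, 3 rose and 1 fell, against 2.78% and 4% of all genes, with a median of 0.08. The risers were Otx2, the POU factor gene Pou3f1 (0.44) and the claudin gene Cldn6 (0.33), and Dnmt1, the maintenance DNA methyltransferase, fell by 0.32. Pou3f1 stood at 9.53 and 9.51 at 12 h, against 9.26 and 8.91 at 8 h, so that the 8 h arrays differed from each other by more than the 12 h arrays did. Fgf5, a marker of later epiblast, was dim and changed by 0.09 ± 0.0653 (limma, adjusted p = 0.496), and Dnmt3b changed by 0.08. Only the call of Otx2 in this list held with any 1 array left out or with background correction. Mean levels of the list were 9.20 and 9.18 at 12 h, against 9.12 and 9.03 at 8 h.

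Of 15 tested FGF and ERK feedback genes, 3 rose and 0 fell, against 2.78% and 4% of all genes. A positive change was measured for 13, against 51.3% of all genes, and the median was 0.14. Dusp4 stood at 9.19 and 9.16 at 12 h, against 8.60 and 8.74 at 8 h, and its other 2 probes changed by 0.26 and 0.33. Spred1, an inhibitor of RAS and ERK signalling, rose by 0.29 and the ETS factor gene Etv4 by 0.24. Dusp6 (0.27), Spry4 (0.28) and Egr1 (0.33) were also higher but did not pass. The call of Dusp4 held with any 1 array left out, and those of Spred1 and Etv4 did not, nor with background correction. Mean levels of the list were 8.67 and 8.65 at 12 h, against 8.49 and 8.52 at 8 h. Of 9 tested genes of FGF ligands, receptors and associated proteins, 1 rose, the FGF carrier Fgfbp1 (0.28), while Fgf4 changed by 0.04 and Fgfr1 by 0.00.

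Among all genes, 2.78% rose and 4% fell, so a single call in a list of this size says little about the list. In the NODAL and BMP list, 3 genes were called. Of 8 NODAL and BMP genes tested, Lefty1 and Lefty2 (−0.41) fell and Gdf3, a TGF-beta family ligand, rose by 0.27, while Nodal changed by 0.02. In the LIF and STAT3 list, 1 of 10 rose, the feedback inhibitor Socs3 (0.45 ± 0.0728; limma, adjusted p = 0.00195), at 10.05 and 9.95 at 12 h, against 9.62 and 9.48 at 8 h. In the WNT list, 1 of 10 fell, Tcf7l1 (−0.40), a repressor of WNT targets. In the NOTCH and proneural list, 1 of 9 fell, the neuronal RNA-binding protein gene Elavl3 (−0.49). Of 7 genes of retinoid receptors and related proteins, the receptor gene Rxrg rose by 0.30. The calls of Lefty1, Socs3 and Elavl3 held with any 1 array left out. Those of Lefty2, Gdf3, Tcf7l1, Rxrg and Fgfbp1 did not. Second, dimmer probes of Elavl3 (−0.14) and Tcf7l1 (−0.18) changed by less and did not pass.

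Of 19 tested genes in the list of giant and cytoskeletal linker genes, 10 fell (52.6%, against 4% of all genes) and 0 rose. All 19 had a negative change, against 48.7% of all genes, with a median of −0.27. With median scaling, under which the median change of all genes was 0.06, 16 were negative. Like all lists here, this list and the motor and chromatin lists below were chosen with earlier results of these data known. Their shares are descriptions and were not tested against those of all genes. Beside Ahnak and Akap9, the falls were led by the linkers Dst (−0.63) and Plec (−0.58), the centrosomal Pcnt (−0.52) and the Golgi tether Golgb1 (−0.51). Dst stood at 6.97 and 7.04 at 12 h, against 7.73 and 7.53 at 8 h. Mean levels of the list were 7.61 and 7.67 at 12 h, against 7.98 and 7.95 at 8 h. The calls of the 6 genes named held with any 1 array left out. Other probes of Dst (−0.13, −0.32 and −0.18) and Plec (−0.22) changed by less.

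Of 22 tested kinesin, myosin and dynein motor genes, 6 fell (27.3%, against 4% of all genes) and 0 rose. A negative change was measured for 21 (20 with median scaling), against 48.7% of all genes without that scaling, and the median was −0.13. Dync1h1, the heavy chain of cytoplasmic dynein, had levels of 8.12 and 8.13 at 12 h, against 8.82 and 8.82 at 8 h, a change of −0.70 ± 0.0784 (limma, adjusted p = 0.00013). Kif1a, a kinesin of axonal transport, stood at 7.10 and 7.10 at 12 h, against 7.75 and 7.81 at 8 h, a change of −0.68 ± 0.0655, or −1.23 with background-corrected values. Its groups were far apart relative to the gap between replicates, as were those of Dync1h1. The non-muscle myosin heavy chains Myh9 (−0.62) and Myh10 (−0.48), Myo9b (−0.42) and Myo5a (−0.24) also fell. A second, dim Myh9 probe changed by 0.07, and the call of Myo5a was lost with any 1 array left out.

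Of 26 tested chromatin regulators, 15 fell (57.7%, against 4% of all genes) and 0 rose. The list was chosen with earlier results of these data known, and its share was not tested. A negative change was measured for 23 (21 with median scaling), against 48.7% of all genes without that scaling, and the median was −0.32. The largest falls were those of the remodeller Chd2 (−0.62), the histone methyltransferases Setd2 (−0.56), Kmt2c (−0.53) and Kmt2d (−0.47), the repressor Spen (−0.49) and the SWI/SNF subunit Arid1b (−0.47). Chd2 stood at 7.96 and 7.83 at 12 h, against 8.58 and 8.44 at 8 h. The polycomb genes Ezh2 (0.06), Suz12 (0.00), Eed (−0.05) and Jarid2 (0.03) did not pass. Mean levels of the list were 8.22 and 8.27 at 12 h, against 8.54 and 8.53 at 8 h. Of the 6 named as largest falls, the call of Kmt2d was lost without replicate 1 at 12 h or replicate 2 at 8 h, and the others held. A second Chd2 probe changed by −0.51. A second, dimmer Setd2 probe changed by −0.24, which did not pass.

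**Figure D3:**
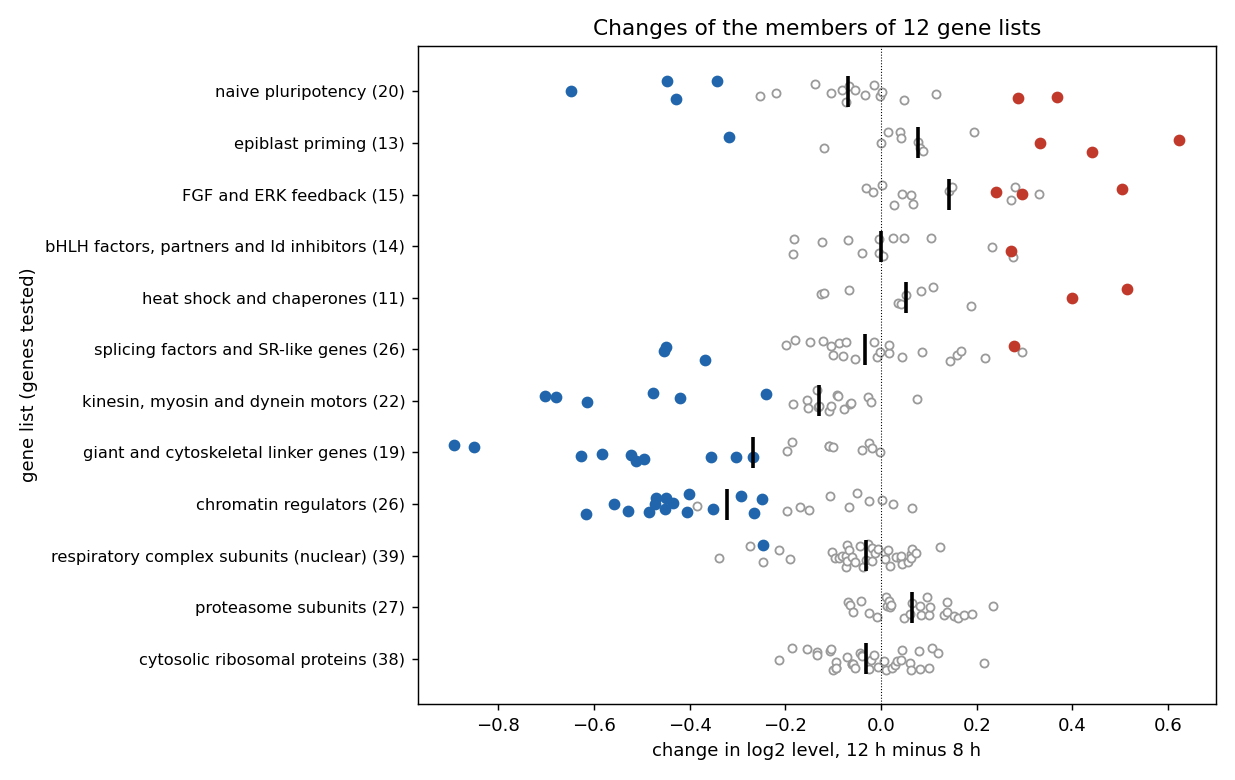
Change in log2 level at 12 h minus 8 h for the tested members of 12 gene lists (one point a gene, number tested in brackets); filled points are called, red higher and blue lower, and black bars are list medians. The giant and cytoskeletal linker genes and the chromatin regulators have medians of −0.27 and −0.32, and the ribosomal protein list has 0 called genes. The lists were chosen with earlier results of these data known.

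Falls were more frequent among genes with a long genomic span. In bins of nearly equal number by span (RefSeq, GRCm38.p6; 99.9% of named genes matched), 2.64% of genes fell in the shortest bin and 8.09% in the longest, which runs from 60.8 to 2240 kb. The share that rose was 4.16% in the shortest bin and 1.82% in the longest. The difference between bins was not tested. The part of span, and of the share of probes detected, which was lower on both 12 h arrays than on both 8 h arrays, in the falls was not tested. The labels give no measure of RNA quality.

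**Figure D4:**
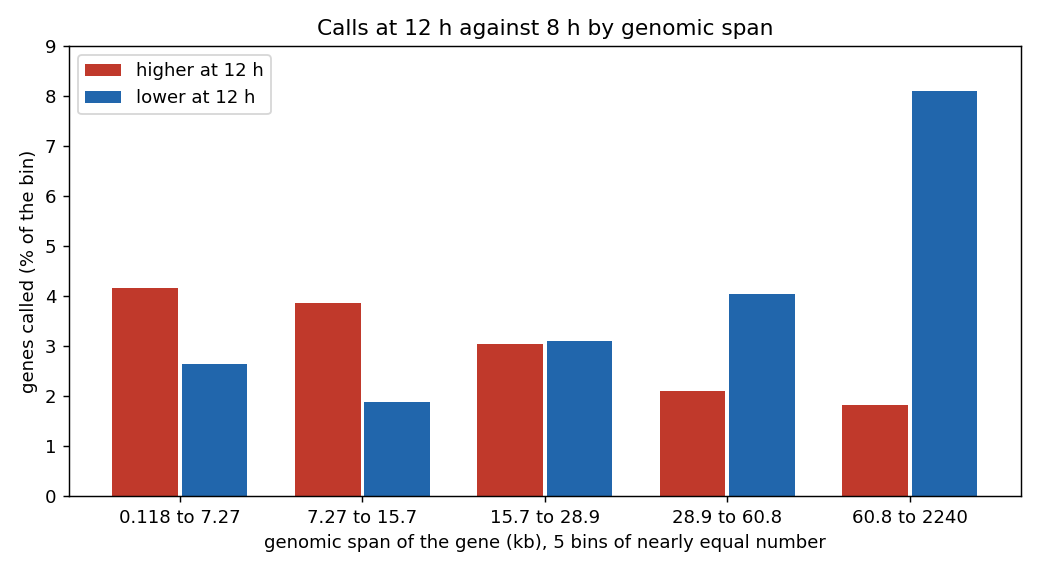
Percentage of tested named genes called higher (red) or lower (blue) at 12 h than at 8 h, in 5 bins of genomic span in kb. The share called lower is 8.09% in the bin of the longest genes, and the share called higher is 4.16% in the bin of the shortest.

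Of 26 tested splicing factor genes, 3 fell and 1 rose, against 4% and 2.78% of all genes, with a median of −0.03, or 0.04 with median scaling. Srrm2, a large protein of nuclear speckles, stood at 8.54 and 8.67 at 12 h, against 9.05 and 9.06 at 8 h (−0.45). Pnisr (−0.45, with a second probe at −0.48) and Srsf5 (−0.37) fell and Srsf1 rose by 0.28. Of 3 tested nuclear-retained RNAs, Neat1, the scaffold of paraspeckles, fell by 0.34. In this group only the call of Srrm2 held with any 1 array left out.

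Of 11 heat shock genes tested, 2 rose (18.2%, against 2.78% of all genes). They were Dnajb1 (10.45 and 10.49 at 12 h, against 9.95 and 9.96 at 8 h) and Hsph1 (0.40), both calls holding with any 1 array left out, while Hspa1a changed by 0.11 and Hsp90aa1 by 0.04. In the integrated stress response list, 1 of 13 fell, against 4% of all genes. This was its transcription factor Atf4 (−0.46), at 9.84 and 9.87 at 12 h, against 10.40 and 10.25 at 8 h. The call was lost with any 1 array left out, and a second, dimmer Atf4 probe changed by −0.13, which did not pass. Of 14 interferon-inducible genes, Irf1 (0.31) and Gbp2b (0.27) rose (14.3%, against 2.78% of all genes), and of 21 replication and mitosis genes, the kinases Aurka (0.32) and Aurkb (0.23) rose; none of these calls held with every array left out in turn. By limma 0 genes were called among 11 of the p53 pathway, 8 immediate early genes, 38 cytosolic ribosomal proteins, 27 proteasome subunits, 5 keratins and 3 Gadd45 genes. At an unadjusted p under 0.05 these lists held 2, 1, 4, 4, 1 and 2 genes in the same order. Of all 10093 genes, 2126 were under that unadjusted limit. The share of all genes called at an adjusted p under 0.05 was 6.79%. In the glycolysis list 1 of 13 rose, the glucose transporter Slc2a1 (0.23), in the respiratory complex list 1 of 39 fell, Ndufa7 (−0.25), and of 7 mitochondrially encoded transcripts 1 fell, COX2 (−0.53); these 3 calls also depended on single arrays.

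Of all genes, 2.78% rose and 4% fell, and in the primitive endoderm list, 1 of 11 rose, Sparc (0.27), and 1 fell, Lama1 (−0.51), both of which encode basement membrane components, while Gata6 changed by −0.02 and Sox7 by 0.01. Of 8 primitive endoderm markers with a probe, 2 were detected on both 12 h arrays and 3 on both 8 h arrays. Their mean levels were 6.79 and 6.80 at 12 h, against 6.89 and 6.88 at 8 h. Of the 8, 4 were detected on none of the 4 arrays, and Lama1 changed by more than any other, so the mean does not describe the set. In the germ cell and 2-cell-like list, Tex19.1 rose by 0.39 and Tfap2c fell by 0.39 of 6 tested. Of 13 tested cadherin, epithelial and mesenchymal genes, 1 rose, Cldn6 (0.33), and 0 fell. Cdh1, the epithelial cadherin, changed by 0.00 (limma, adjusted p = 0.992), Twist1 by 0.02 and Snai1 by −0.01. Larger changes that did not pass were those of Fn1 (−0.29), Mmp2 (0.26) and Vim (0.23). Of the early mesoderm and somite list 1 gene passed the filter on dim probes, Evx1 (−0.11, not called). The calls of Sparc, Lama1, Tex19.1, Tfap2c and Cldn6 were each lost with at least 1 array left out.

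The step was then set against the next one, 24 h against 12 h, which gave 184 genes higher (1.82%) and 182 lower (1.8%). Both steps share the 12 h arrays, so a deviation of those arrays enters both with opposite sign. In a direct test of the difference between steps, the earlier change was the more positive for 283 genes (2.8%) and the more negative for 331 (3.28%). Among named genes, the most positive difference was that of Txnip (1.20 ± 0.145; limma, adjusted p = 0.000451), whose levels were 8.52 and 8.43 at 8 h, 9.18 and 8.98 at 12 h and 8.52 and 8.44 at 24 h. Edn2, Ccdc3, Esam and Slc47a1 followed, with differences of 1.07, 0.94, 0.88 and 0.88, and in each the 12 h arrays were the highest of the 3 times. Without replicate 1 at 12 h the count of step differences was 51 in both directions together, without replicate 2 at 12 h it was 183, and without replicate 1 at 8 h it was 397, in place of 614.

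Among named genes, the most negative differences were those of Akap12 (−1.45), Ahnak (−1.42), Myh9 (−1.29), Hspg2 (−1.25) and Akap9 (−1.22). Ahnak stood at 9.96 and 9.94 at 8 h, 8.94 and 9.18 at 12 h and 9.48 and 9.69 at 24 h. Myh9 stood at 8.66 and 8.51 at 8 h, 7.92 and 8.03 at 12 h and 8.76 and 8.54 at 24 h. For these genes the 12 h arrays were the lowest of the 3 times. The difference was negative and called for 14 of 26 chromatin regulators and 11 of 19 giant and cytoskeletal linker genes, against 3.28% of all genes. Both lists were chosen with earlier results of these data known. Their median changes at 24 h against 12 h were 0.27 and 0.19, beside −0.32 and −0.27 at 12 h against 8 h.

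For Prr19, Otx2, Nanog and Lefty1 the later change did not pass. Prr19 stood at 8.09 and 7.98 at 24 h, Otx2 at 9.72 and 9.77, Nanog at 10.15 and 10.11 and Lefty1 at 10.10 and 10.01. Their changes at 24 h against 12 h were −0.08, −0.06, 0.14 and 0.02. Dusp4 rose again, with a change of 0.28 at 24 h against 12 h (limma, adjusted p = 0.0336), and Irf1 and Gbp2b likewise (0.27 and 0.28). Ccno fell by 0.32 (limma, adjusted p = 0.0107) and Atf4 rose by 0.71 (limma, adjusted p = 0.00374). The naive list stood at 9.38 and 9.38 at 8 h, 9.25 and 9.30 at 12 h and 9.23 and 9.23 at 24 h.

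**Figure D5:**
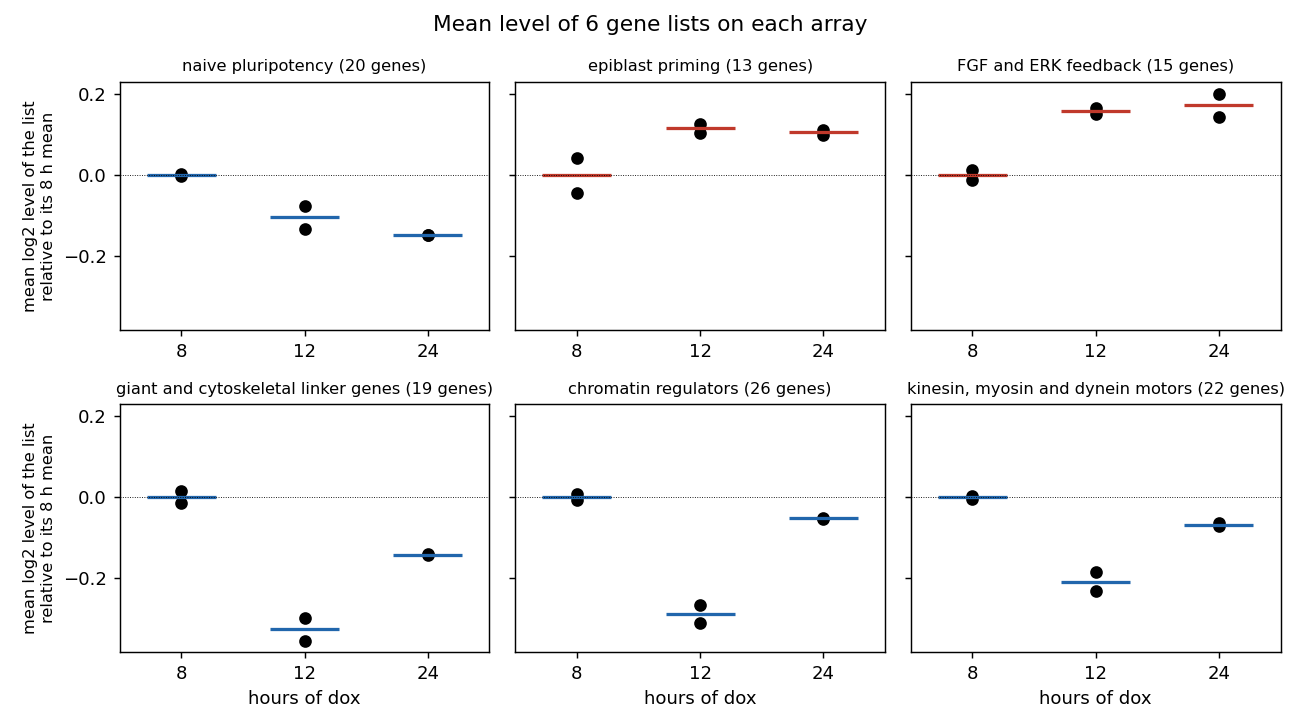
Mean log2 level of 6 gene lists on each array of Tcf15-E47 cells at 8, 12 and 24 h of dox, relative to the list's mean at 8 h; points are arrays and lines group means. The naive list lies lower at 12 and 24 h, the epiblast priming and FGF feedback lists lie higher at both, and the giant linker, chromatin and motor lists lie lowest at 12 h.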

How the data were processed

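Arrays were grouped by their labels. Per the labels' protocols, RNA came from Absolutely RNA kits, and TotalPrep turned 100 ng of it into biotin-labelled cRNA for Illumina BeadChips. The deposited log2 values were taken to be quantile normalized, which their equal medians (6.57 log2 units on every array) do not show alone. They keep the scale of the signals before normalization (medians 6.52 to 6.58 on the 4 arrays compared), without background subtraction. The submitters' processing notes name limma without a version. A second table deposited by the authors gives, per the file headers, the signal intensity and the detection p-value of every entry before normalization. Entries share 0 names with the probes, so 16779 of 30854 entries were matched to the 38561 probes by value, with isotonic curves (scikit-learn 1.9.0). Of 8424 held-out matches, all chosen for clarity, 100% were found again. Background correction used neqc of limma 3.58.1 (R 4.3.3, offset 16).

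Probes with detection p under 0.01 on at least 2 of 12 arrays were kept (13914). The probe of the highest mean stood for each gene, giving 8537 named and 1556 unnamed of 10093 tested; 32093 probes had 1 gene in the platform annotation, 16 several and 6452 none. Limma fitted group means over all 12 arrays (6 residual and 8.68 prior degrees of freedom; two-sided moderated test; Benjamini-Hochberg over all tested). In simulated data for this comparison, 57% of changes of 0.3 and 97% of 0.6 were recovered among 10093 genes, with 5 false calls. The simulated noise was independent between genes. No deviation was shared across an array, so these rates may not carry over to the real arrays. Signal near background (median signal 89.0 to 103.1 units) and the number of arrays limit precision.

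The members and the 34 lists (693 entries, 454 genes tested) were chosen with earlier results of these data known. The text names the 15 largest rises and falls, the 5 and 5 largest step differences, 14 genes always, and up to 6 called genes of each list; uncalled list members are added as context, after their values were seen. The printed promoters were likewise chosen after values were seen, in place of those of the 6 largest changes. Replicate numbers were not taken to pair the arrays: deviations correlated at 0.04 between 12 and 8 h, −0.01 between 12 and 24 h and 0.24 between 8 and 24 h.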

Additional observations from a re-analysis of the deposited data

Results flagged for a closer look

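Among named genes, the 10 given here have the 5 most positive and 5 most negative of 614 step differences called by limma, in which the change at 12 h against 8 h differed from that at 24 h against 12 h in a test of the difference itself. Unnamed probe ILMN_2502996 had a more negative difference (−1.67) than any of them, and other unnamed probes lay between Ahnak and Myh9. The earlier change was the more positive for Txnip (1.20), Edn2 (1.07), Ccdc3 (0.94), Esam (0.88) and Slc47a1 (0.88). It was the more negative for Akap9 (−1.22), Hspg2 (−1.25), Myh9 (−1.29), Ahnak (−1.42) and Akap12 (−1.45). Both changes share the 12 h arrays. With 2 arrays a group, no group was large enough to look for single outlying arrays.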

How the results depend on the processing

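With background correction (neqc on recovered signals) 142 genes were higher and 353 step differences were called, while 287 were lower. With median scaling 5 were higher, 5 lower and 10 step differences were called; the median change of all genes was then 0.06, the median SE of a change 0.0983 in place of 0.0703, and calls higher were 50% of calls in place of 41.0% (33.1% with background correction). Fitting only the 4 arrays compared gave 482 higher and 589 lower, and left too few groups for the step difference. Leaving out 1 array gave 48 to 94 higher, 120 to 190 lower and 51 to 413 step differences. The fit then assumes that the lone array varies like the other groups. Trend and robust moderation, the 6 dox-treated arrays, no filter (24992 tested), detection on all 4 arrays and every kept probe moved these counts by less than 1.5 times. So did the replicate block (300 higher, 408 lower, 653 step differences), although the labels' replicate numbers were not taken to pair the arrays (deviations correlated at 0.04 between 12 and 8 h, −0.01 between 12 and 24 h and 0.24 between 8 and 24 h); for the named genes it ended the call of Myo5a. Of 84 named genes called, 47 kept the call with any 1 array left out, 7 in every setting run, and 0 reversed.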

Other observations

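Among probes without a gene name in the platform annotation, 25 were higher and 67 lower at 12 h. The largest change of all, −0.99 ± 0.0656 (limma, adjusted p = 2.45e-06), was that of probe ILMN_2502996, at 9.73 and 9.63 at 12 h, against 10.72 and 10.62 at 8 h. Probe ILMN_2939012 changed by −0.91. The largest rise among these probes, 0.53, was that of ILMN_2470646. ILMN_2502996 and ILMN_2939012 were among the 10 probes still called under median scaling.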
